A study of Homo sapiens with 24 samples.

Results

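The early response of Molm-14 cells to RMC-7977 was described from 8 of the 23 libraries used here: 4 libraries of cells given RMC-7977 at 25 nM for 2 h, set against 4 libraries of cells given DMSO, the solvent, with all 13033 genes of the table compared. Molm-14 is a human acute myeloid leukaemia line labelled FLT3-ITD, an internal tandem duplication in the receptor tyrosine kinase FLT3, and every Molm-14 library carries it. RMC-7977 is a RAS(ON) inhibitor: it engages RAS proteins in their active state, with GTP bound. The series also holds Molm-14 at 24 h and the OCI-AML3 line (OCIAML-3 in the labels, with the genotype NRAS Q61L), another acute myeloid leukaemia line, under DMSO and under the drug at 25 nM for 2 h and 24 h. These are used below only where the 2 h response in Molm-14 is set against them. Each condition had 5000000 cells, RNA was selected by poly(A), the labels give all libraries 1 batch, and they state no time for DMSO. Whether the 4 libraries of a group were grown as separate cultures is not stated, and the p-values therefore speak for the spread among these libraries, each group being 1 cell line.

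Active FLT3 recruits adaptors that load RAS with GTP, and RAS-GTP then starts the kinase chain of RAF, MEK and ERK. ERK switches on a first wave of genes within minutes, and many of these encode brakes on the same chain: dual-specificity phosphatases remove phosphate from MAP kinases, and Sprouty and SPRED proteins act upstream of RAF. Most of these transcripts are short-lived, and their levels are the usual readout of MEK and RAS inhibitors.

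Effective library sizes of the 8 libraries were 15400000 to 21900000 reads, and levels are given in CPM, reads scaled to the size of the library. Libraries of one group were alike (Pearson r over genes 0.9942 to 0.9965), and no pair differed by as little as sampling noise. Replicate 1 of the 2 h group and replicate 2 of DMSO stood apart from their groups by transcript GC content. The median difference from DMSO was 0.26 log2 units higher in the GC-richest quartile of genes than in the GC-poorest quartile in replicate 1 of the 2 h group, against 0.02 to 0.03 in the other 2 h libraries. In replicate 2 of DMSO it was 0.17, against -0.07 to -0.04 in the other DMSO libraries. Without both libraries 975 genes were called, 574 higher and 401 lower, and 900 of them were among the 950 called with all libraries. All 16 listed myeloid markers were in the table, with summed levels of 2368 CPM at 2 h and 2244 CPM in DMSO and 0 called. Their log2 fold changes ran from -0.939 to 0.935, 7 below 0 and 9 above, so the sums hide shifts in both directions. Of 11 lymphoid markers 1 was in the table, NKG7, at 13.6 to 15.9 CPM at 2 h and 14.3 to 14.9 CPM in DMSO. Of 10 erythroid and platelet markers 0 were in the table, and of 10 epithelial and stromal markers 2 were, with summed levels of 8.6 CPM at 2 h and 6.9 CPM in DMSO.

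After 2 h, 950 genes were called, 561 higher (4.3% of genes tested) and 389 lower (2.98%). A call required both an adjusted p below 0.05 (limma, Benjamini-Hochberg) and a log2 fold change of 1 or more in size. Only called genes are said below to have risen or fallen. Counts of list members below are to be read beside these shares of all genes, 4.3% higher and 2.98% lower. Without the fold requirement 59.5% of genes had an adjusted p below 0.05, and with it 7.29% were called. Log2 fold changes are those of the deposited log2 CPM, which carry an offset of 0.105 CPM, so that changes of genes near 0 are understated. Large changes were few: 75.1% of all genes stayed within 0.5 log2 units of DMSO, and 88 rises and 44 falls reached 2 log2 units. The genes that rose started low, with a median of 4.02 CPM in DMSO, and 143 of the 561 had a mean under 1 CPM there. The genes that fell had a median of 30.9 CPM in DMSO, close to the 28.0 CPM of all genes tested. At 2 h the medians were 11.8 CPM for genes that rose and 11.2 CPM for genes that fell, and 140 of the 389 averaged under 5 CPM there. Genes near 0 in DMSO can be called higher but have little room to be called lower. These are bulk libraries, so fewer cells expressing a gene and less RNA per cell cannot be told apart, and CPM values are shares of a library and not amounts per cell.

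**Figure D1:**
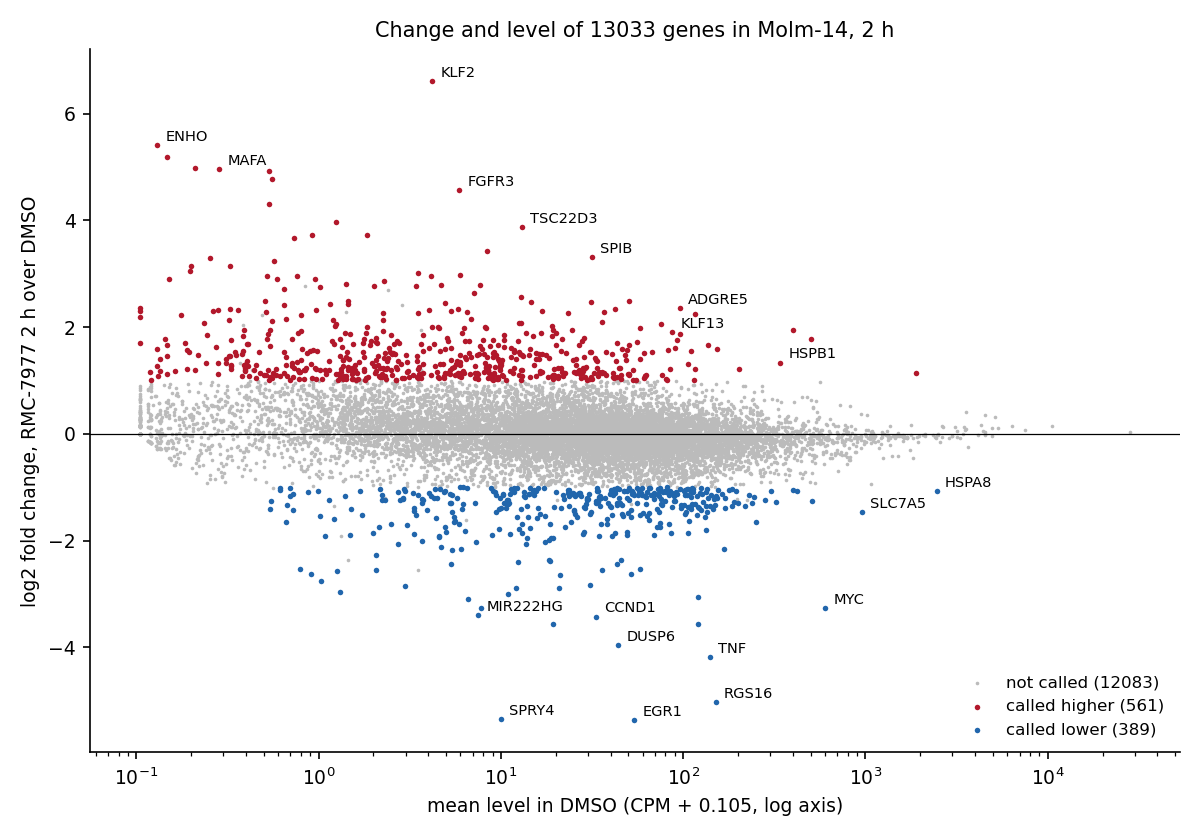
Each point is a gene: the x axis is its mean level in DMSO (CPM plus the offset of 0.105, log axis, n = 4) and the y axis its log2 fold change, RMC-7977 2 h over DMSO. The 561 genes called higher include many of low DMSO level, such as ENHO and MAFA, whereas MYC, TNF and RGS16 are among the 389 called lower from DMSO means above 100 CPM.

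The largest falls included genes that ERK is known to switch on. EGR1 (chr5:138465479-138469303, plus strand), a zinc-finger immediate early factor, had 1.37, 1.09, 0.865 and 1.55 CPM at 2 h, against 50.7, 54.6, 55.2 and 53.8 CPM in DMSO. No treated library came near a DMSO library, and the log2 fold change was -5.37 ± 0.20 (SE, n = 4 each, adjusted p = 2.62e-19). SPRY4 (chr5:142310430-142325021, minus strand), a Sprouty protein that damps receptor signalling to ERK, had 0.182, 0.110, 0.162 and 0.115 CPM at 2 h, against 10.7, 8.46, 9.61 and 10.7 CPM in DMSO. It was nearly silent in all treated libraries (log2 fold change -5.34 ± 0.19, adjusted p = 1.78e-20). DUSP6 (chr12:89347235-89352501, minus strand), the ERK-specific cytoplasmic phosphatase, had 3.22, 2.54, 3.04 and 2.21 CPM at 2 h, against 47.0, 43.6, 42.9 and 42.2 CPM in DMSO. Again the groups were far apart (log2 fold change -3.96 ± 0.20, adjusted p = 1.12e-16).

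The stretch before the EGR1 start site is shown because the gene was among the largest falls and carries an element by which ERK signalling is known to reach it: CArG boxes, bound by the serum response factor SRF with ETS-family partners. The 250 bases upstream of the RefSeq start (GRCh38.p14, chr5:138465229-138465478, plus strand), in lower case with CArG matches in capitals, read as follows.
EGR1: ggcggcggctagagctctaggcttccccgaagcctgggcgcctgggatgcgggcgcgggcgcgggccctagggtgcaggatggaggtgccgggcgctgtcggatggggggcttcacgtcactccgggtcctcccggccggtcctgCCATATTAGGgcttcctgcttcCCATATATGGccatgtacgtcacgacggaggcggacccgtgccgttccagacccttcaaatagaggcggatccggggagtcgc
Both matches lie 74 to 105 bases before the start. Promoters of 10440 of the 13033 genes were matched by symbol, and a CArG match on either strand was present in 0.98% of these windows, in 1.34% of 299 windows of genes that fell and in 0.95% of 423 windows of genes that rose. SRF itself was not called (-0.28 ± 0.06, adjusted p = 7.08e-05).

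Among the 11 MAP kinase phosphatases 5 fell and 2 rose, with a median log2 fold change of -0.23, against 0.0 for all genes. For comparison, 2.98% of all genes fell and 4.3% rose. DUSP6, DUSP4, DUSP7, DUSP2 and DUSP5 fell, and the treated libraries of each lay below all DMSO libraries, as they did for 28.2% of all genes. DUSP4, a nuclear phosphatase induced by ERK, was undetected in 2 treated libraries and at 0.162 and 0.173 CPM in the others, against 1.07 to 1.37 CPM in DMSO (log2 fold change -2.96 ± 0.26, adjusted p = 3.91e-11). DUSP7, a close relative of DUSP6, had 61.2 to 69.7 CPM at 2 h and 161 to 178 CPM in DMSO (-1.40 ± 0.04, adjusted p = 8.25e-22). DUSP2, the phosphatase of activated leukocytes, was at -1.29 ± 0.12, and DUSP5, a nuclear ERK phosphatase, at -1.14 ± 0.10 (-0.997 and no call once 1 CPM was added to every value before taking logs). DUSP16 and DUSP8, phosphatases known for JNK and p38, rose, whereas DUSP10, known for the same kinases, was not called (-0.23). DUSP16 rose to 18.1, 16.9, 18.7 and 18.7 CPM at 2 h, against 4.61, 4.69, 4.44 and 3.97 CPM in DMSO (2.01 ± 0.12, adjusted p = 1.10e-14). DUSP8 rose to 28.4, 25.5, 25.5 and 25.1 CPM at 2 h, against 4.18, 6.05, 5.62 and 5.08 CPM in DMSO (2.31 ± 0.16, adjusted p = 2.42e-13). DUSP1, which acts on all 3 kinase classes, had 3.34 to 5.29 CPM at 2 h and 3.65 to 4.05 CPM in DMSO, overlapping values with no call, and DUSP14 (0.08) was not called either, while DUSP9 had 4 reads at 2 h and 1 in DMSO.

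Of the 15 measured genes of the Sprouty, SPRED and feedback list 7 fell and 0 rose (median -0.21). SPRY2 (chr13:80335976-80341126, minus strand) had 6.61, 5.26, 6.22 and 6.19 CPM at 2 h, against 36.1, 37.6, 36.1 and 34.3 CPM in DMSO. This fall of 2.55 ± 0.07 log2 units (adjusted p = 5.21e-23) left the groups well apart. SPRED1, which brings neurofibromin to the membrane to switch RAS off, fell by 1.96 ± 0.10 and SPRED2 by 1.24 ± 0.08. The survival gene IER3 had 0.365, 1.15, 1.24 and 1.09 CPM at 2 h and 4.67 to 6.18 CPM in DMSO, a fall of 2.43 ± 0.33 log2 units. PHLDA2 fell by 1.35 ± 0.16, and PHLDA1 fell by 1.09 ± 0.10 (-0.96 with 1 CPM added and -0.99 when DMSO replicate 4 was left out, both short of the fold threshold). The remaining members were not called, among them SPRY3 at 0.38 ± 0.13 and the EGFR-family inhibitor ERRFI1 at -0.21 ± 0.10. Of the 26 genes of the phosphatase list and the feedback list 12 fell, 2 rose and 12 were not called. Not all of them act on ERK, since some of the phosphatases are known for JNK and p38.

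**Figure D2:**
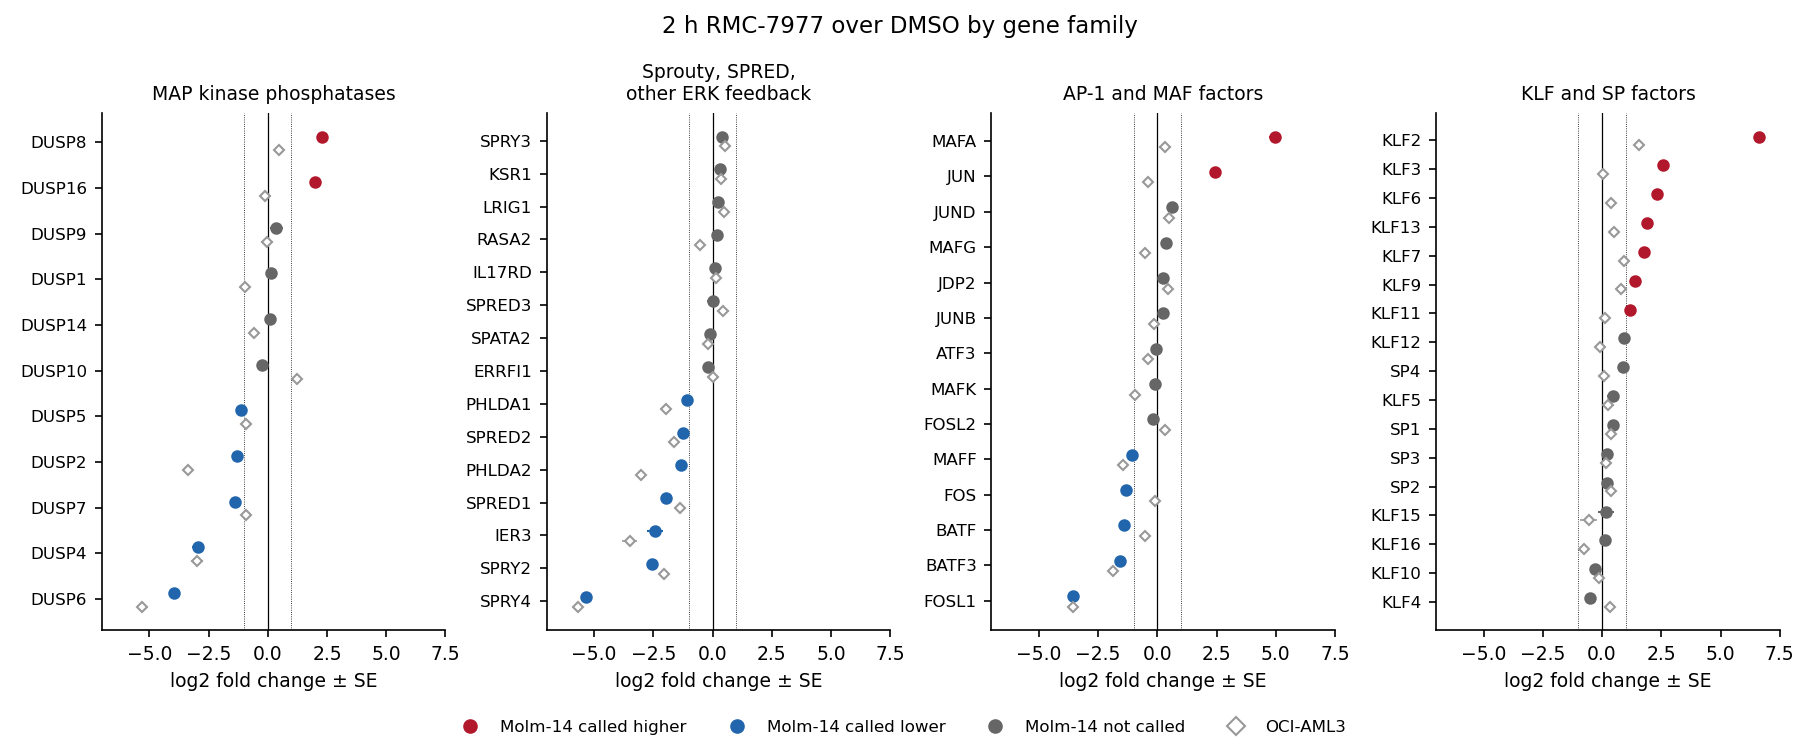
Log2 fold change ± SE of each measured gene of 4 families after 2 h of RMC-7977 over DMSO, filled circles for Molm-14 (red called higher, blue called lower, grey not called) and open diamonds for OCI-AML3, n = 4 libraries per group; dotted lines mark the fold threshold, and genes without reads in Molm-14 are left out. DUSP6, DUSP4 and SPRY4 lie far to the left in both lines, and JUN, KLF3 and KLF6 are to the right of the threshold in Molm-14 and not called in OCI-AML3.

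Immediate early transcription factors split. Of 15 AP-1 and MAF factors 5 fell and 2 rose (median -0.06). FOSL1, the FRA-1 subunit whose gene depends on sustained ERK activity, had 1.89, 1.37, 1.46 and 1.44 CPM at 2 h, against 17.95, 20.7, 19.5 and 18.7 CPM in DMSO (-3.56 ± 0.16, adjusted p = 3.30e-18). FOS had 13.2, 18.6, 24.6 and 17.6 CPM at 2 h, against 56.3, 45.2, 38.2 and 44.3 CPM in DMSO. Its fall of 1.33 ± 0.13 (adjusted p = 8.68e-09) was smaller than that of FOSL1, with a wider spread between libraries. BATF3 (-1.56 ± 0.13) and BATF (-1.41 ± 0.11), leukocyte AP-1 factors without a transactivation domain, fell too. MAFF fell by 1.08 ± 0.17, but was no longer called without DMSO replicate 2 (-0.95), without 2 h replicate 4 (-0.98) or with 1 CPM added (-0.73). JUN (chr1:58780791-58784047, minus strand), the main partner of FOS, went against the FOS genes, with 29.2, 24.9, 28.5 and 24.9 CPM at 2 h and 4.73, 5.99, 4.72 and 3.97 CPM in DMSO (2.46 ± 0.11, adjusted p = 4.46e-18). MAFA, a large MAF factor best known from pancreatic beta cells, rose to 8.98, 6.79, 8.97 and 8.48 CPM at 2 h, against 0.0460 to 0.260 CPM in DMSO (4.95 ± 0.26, adjusted p = 1.44e-16). JUNB (0.22), JUND (0.62), FOSL2 (-0.20) and ATF3 (-0.06) were not called.

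The EGR, NR4A and IER genes were divided in the same way, with 2 of 11 lower and 2 higher (median -0.28). EGR3, at 0.0456 to 0.162 CPM at 2 h and 0.450 to 0.781 CPM in DMSO, fell with EGR1 (-1.64 ± 0.34), though not with 1 CPM added (-0.49). NR4A1, an orphan nuclear receptor and classical immediate early gene, rose instead, to 54.8, 49.5, 49.7 and 48.3 CPM at 2 h, against 14.1, 15.2, 12.8 and 12.6 CPM in DMSO (1.88 ± 0.09, adjusted p = 2.72e-17). IER5, a regulator of heat shock factor activity, rose to 125 to 149 CPM at 2 h, against 55.7 to 65.9 CPM in DMSO (1.09 ± 0.07). Not called were IER2 (-0.34), EGR4 (-0.80) and NR4A2 (0.35).

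Of 19 ETS factors 3 fell and 1 rose (median -0.04). The PEA3 subfamily, itself a transcriptional output of ERK, fell in full: ETV5 had 3.94 to 4.74 CPM at 2 h and 28.3 to 32.3 CPM in DMSO (-2.83 ± 0.15), ETV1 had 0.274 to 0.402 CPM at 2 h and 1.50 to 2.64 CPM in DMSO (-2.27 ± 0.30), and ETV4 was at -1.12 ± 0.23 (adjusted p = 2.78e-04). SPIB (chr19:50418938-50431314, plus strand), the relative of PU.1 known from B cells and plasmacytoid dendritic cells, rose to 334, 304, 309 and 307 CPM at 2 h, against 32.9, 33.9, 30.9 and 28.0 CPM in DMSO. This was an increase of 3.32 ± 0.09 log2 units (adjusted p = 2.37e-23), and no ETS gene other than SPIB was called higher.

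Among the Krüppel-like and SP factors 7 of 17 rose (41.2%, against 4.3% of all genes), 0 fell and the median was 0.87. KLF2 (chr19:16324826-16328685, plus strand), a factor that restrains activation of monocytes and endothelium, had 472, 374, 405 and 379 CPM at 2 h, against 4.67, 4.23, 3.26 and 4.22 CPM in DMSO. The treated mean was 99.5 times the DMSO mean, and its log2 fold change of 6.61 ± 0.09 (adjusted p = 6.68e-26) was the largest of the 13033 genes. KLF3, a repressor of the family, had 74.9, 73.6, 76.8 and 76.4 CPM at 2 h, against 12.3, 14, 12.2 and 12.6 CPM in DMSO (2.56 ± 0.06, adjusted p = 1.42e-24). KLF6 had 204 to 224 CPM at 2 h and 39.0 to 47.0 CPM in DMSO (2.33 ± 0.06), and KLF13 had 307 to 364 CPM at 2 h and 77.2 to 92.4 CPM in DMSO (1.91 ± 0.05). KLF7 (1.77 ± 0.07), KLF9 (1.40 ± 0.07) and KLF11 (1.17 ± 0.09) rose as well. KLF4 (-0.49 ± 0.10) and KLF10 (-0.32 ± 0.06), best known as early genes of growth or stress signals, were not called. In all 7 called genes the treated libraries lay above every DMSO library, as they did for 25.4% of all genes.

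KLF2 and JUN are shown because both rose while EGR1 and FOS fell, and because the windows of both hold a match to the MEF2 motif, the binding motif of a factor family that MAP kinases regulate. Their 250 bases upstream of the RefSeq start (GRCh38.p14, KLF2 chr19:16324576-16324825, plus strand, and JUN chr1:58784048-58784297, minus strand) are given 5′ to 3′ with the MEF2 match in capitals.
KLF2: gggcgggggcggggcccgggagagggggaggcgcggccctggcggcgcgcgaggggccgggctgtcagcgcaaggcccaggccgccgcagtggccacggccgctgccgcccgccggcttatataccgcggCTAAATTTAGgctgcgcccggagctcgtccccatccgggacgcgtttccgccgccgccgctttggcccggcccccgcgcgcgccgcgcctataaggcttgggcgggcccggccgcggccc
JUN: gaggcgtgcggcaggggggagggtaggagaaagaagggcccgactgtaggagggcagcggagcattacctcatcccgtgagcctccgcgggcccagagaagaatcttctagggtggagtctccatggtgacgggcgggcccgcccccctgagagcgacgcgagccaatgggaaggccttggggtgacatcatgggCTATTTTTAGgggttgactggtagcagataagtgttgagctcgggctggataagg
The match lies 111 to 120 bases before the start in KLF2 and 46 to 55 bases before it in JUN. Such a match was rare, in 0.32% of the 10440 windows, in 4 of 423 windows of genes that rose (0.95%) and in 2 of 299 windows of genes that fell (0.67%).

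Of 37 components of the RAS pathway 5 rose (13.5%, against 4.3% of all genes) and 0 fell (against 2.98% of all genes), with a median of 0.20. NRAS had 142 to 150 CPM at 2 h and 128 to 141 CPM in DMSO (0.14 ± 0.05), and HRAS had 30.7 to 34.6 CPM at 2 h and 29.4 to 33.4 CPM in DMSO (0.04 ± 0.07), so neither was called. RRAS, a RAS relative, rose by 1.50 ± 0.10. RASGRP2, a calcium-responsive exchange factor best known for RAP1, rose to 81.1 to 95.2 CPM at 2 h, against 32.7 to 34.9 CPM in DMSO (1.37 ± 0.05). The adaptor GAB1, under 1 CPM in both groups, rose by 1.48 ± 0.20, not called with 1 CPM added (0.44), and the kinase RPS6KA2 rose by 1.12.

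Receptor tyrosine kinases followed this pattern, with 4 of 15 higher and 0 lower (median 0.22). FGFR3 (chr4:1793293-1808867, plus strand), a fibroblast growth factor receptor, had 151, 139, 136 and 135 CPM at 2 h, against 5.79, 5.99, 6.47 and 5.03 CPM in DMSO. Every treated library lay far above every DMSO library (4.57 ± 0.07, adjusted p = 2.53e-29). AXL, a receptor of the TAM family linked to resistance to FLT3 inhibitors, had 8.35, 6.48, 8.51 and 6.91 CPM at 2 h, against 3.08, 3.65, 3.09 and 2.05 CPM in DMSO (1.34 ± 0.17, adjusted p = 4.03e-08). LTK had 0.216 to 0.501 CPM at 2 h and 0.0460 to 0.260 CPM in DMSO (1.20 ± 0.23), a call that adding 1 CPM removed (0.30). EPHB4, an ephrin receptor, rose by 1.02 ± 0.06, at the threshold, and leaving out DMSO replicate 1, DMSO replicate 4 or 2 h replicate 1 gave 0.96 to 0.99 and no call. FLT3 itself, the mutated receptor, had 381, 384, 397 and 386 CPM at 2 h, against 338, 318, 332 and 339 CPM in DMSO, a change of 0.22 ± 0.04 that did not reach the threshold. Of the 15 genes tied to FLT3 and STAT5, the feedback inhibitors SOCS1 (1.19 ± 0.15) and SOCS3 (1.19 ± 0.21) rose, CDC25A fell (-1.12 ± 0.07), and the STAT5 target kinase PIM1 was not called (24.4 ± 1.01 CPM at 2 h and 16.9 ± 1.17 CPM in DMSO, SD, n = 4 each; 0.54 ± 0.09).

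MYC, the growth-promoting transcription factor, had 66.5, 59.3, 61.8 and 62.7 CPM at 2 h, against 601, 597, 601 and 605 CPM in DMSO (-3.26 ± 0.04, adjusted p = 4.27e-31). The groups were far apart, while MXD4, an antagonist that competes with MYC for MAX, rose to 64.6 to 75.9 CPM at 2 h, against 26.5 to 30.4 CPM in DMSO (1.24 ± 0.06). Of the 12 genes of the MYC, MAX and MXD network these alone were called.

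Nucleolar genes moved together. All 70 genes of the nucleolar ribosome assembly list had a log2 fold change below 0, from -1.80 to -0.15, with a median of -0.86, against 0.0 for all genes, and 27 of them fell (38.6%, against 2.98% of all genes) while 0 rose. URB2, needed for early processing of ribosomal RNA, had 21.5, 20.3, 21.0 and 21.9 CPM at 2 h, against 70.6, 73.9, 74.7 and 66.2 CPM in DMSO (-1.75 ± 0.06, adjusted p = 3.59e-21). BRIX1, an assembly factor of the large subunit, had 39.8, 46.5, 47.2 and 44.3 CPM at 2 h, against 133, 122, 131 and 139 CPM in DMSO (-1.56 ± 0.05, adjusted p = 1.71e-21). RRS1 (-1.80 ± 0.05) and MAK16 (-1.74 ± 0.06), also large-subunit factors, fell by similar amounts, and BYSL (-1.67), NOP16 (-1.62), UTP15 (-1.52) and NOP2 (-1.13) were among the other falls.

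Of 31 genes of RNA polymerase I and III and their factors, which make ribosomal and transfer RNA, 8 fell and 0 rose (median -0.42). POLR1G (chr19:45406644-45410737, plus strand), a subunit of polymerase I, had 10.6, 9.93, 10.7 and 8.62 CPM at 2 h, against 53.4, 59.1, 59.9 and 60.4 CPM in DMSO. Its fall of 2.54 ± 0.09 log2 units (adjusted p = 4.82e-20) was the deepest of the list. POLR1C (-1.40 ± 0.06), shared by both polymerases, the polymerase I subunit POLR1B (-1.31 ± 0.05) and the polymerase III subunit POLR3E (-1.12 ± 0.05) fell too. POLR3G (-1.18), POLR3D (-1.16) and POLR3K (-1.01) were also called lower. POLR1G overlaps ERCC1 and POLR1C overlaps XPO5, and since the strand setting of the counting is not given, reads in the shared stretches cannot be told apart.

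The POLR1G promoter is shown because it holds the E-box CACGTG, the sequence that MYC-MAX dimers bind, 7 to 12 bases before the start (RefSeq, GRCh38.p14, chr19:45406394-45406643, plus strand, E-box in capitals).
POLR1G: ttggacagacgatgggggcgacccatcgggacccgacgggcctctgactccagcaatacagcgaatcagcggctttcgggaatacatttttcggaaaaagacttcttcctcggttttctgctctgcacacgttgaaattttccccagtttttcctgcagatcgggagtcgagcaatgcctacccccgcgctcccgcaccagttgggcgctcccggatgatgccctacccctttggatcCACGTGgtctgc
CACGTG, which reads the same on both strands, occurred in 9 of 60 matched nucleolar assembly promoters, in 12.04% of windows of genes that fell, in 8.51% of windows of genes that rose and in 9.0% of all matched windows. The ETS core CCGGAAG was in 30.0% of the nucleolar promoters and 16.5% of all. It was in 15.4% of windows of genes that fell and 7.57% of those of genes that rose. The CRE TGACGTCA (4.01% of windows of genes that fell, 2.13% of those that rose, 2.85% of all), the AP-1 motif TGANTCA (5.35%, 3.78% and 3.65% in the same order) and the FOXO motif GTAAACA (3.68%, 2.36% and 2.02%) were searched on both strands as well.

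Other growth genes stood still or moved less. The 74 cytosolic ribosomal protein genes had a median of -0.06 and a range of -0.25 to 0.05, with 0 called, unlike the assembly factors. Small as these changes were, 69 of the 74 lay below 0 and 5 above, against 6505 below and 6383 above among all genes. The 31 replication genes had 0 called (median -0.05, range -0.49 to 0.36), RRM2 being at -0.36 ± 0.04 and FEN1 at -0.42 ± 0.05. Of 22 small nucleolar RNA host genes 4 fell, SNHG17 (-1.32 ± 0.06), SNHG4 (-1.22 ± 0.06), SNHG16 (-1.17 ± 0.05) and SNHG15 (-1.13 ± 0.05), and 0 rose. SNHG4 overlaps MATR3, with the same uncertainty about strand. In the chaperone list of 26 genes (median -0.39), XBP1, the factor of the unfolded protein response, fell to 76.2 to 81.0 CPM at 2 h, against 242 to 265 CPM in DMSO (-1.66 ± 0.04). The constitutive chaperone HSPA8 fell by 1.07 ± 0.04, and the small heat shock protein HSPB1 rose to 826 to 907 CPM at 2 h, against 337 to 348 CPM in DMSO (1.33 ± 0.06).

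**Figure D3:**
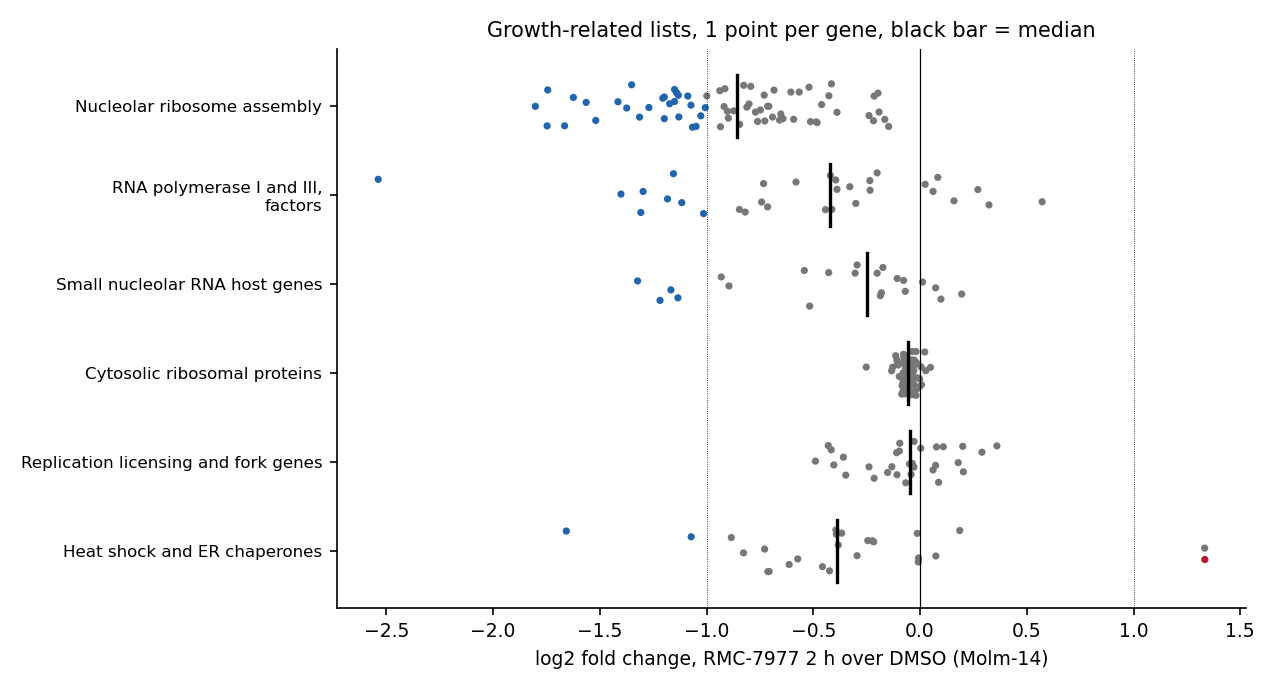
Log2 fold change in Molm-14 (RMC-7977 2 h over DMSO, x axis) of each measured gene in 6 growth-related lists (y axis, points spread vertically for visibility), blue called lower, red called higher, grey not called, black bar the median. All 70 nucleolar assembly genes lie left of 0, with a median of -0.86, and the 74 ribosomal protein genes are packed at a median of -0.06.

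Among 27 regulators of the G1 step of the cell cycle 2 rose and 3 fell (median 0.07). CCND1 (chr11:69641156-69654474), the ERK-dependent cyclin D1, had 3.04, 3.01, 3.33 and 2.60 CPM at 2 h, against 31.8, 33.2, 32.4 and 34.99 CPM in DMSO (-3.43 ± 0.13, adjusted p = 9.59e-20). CCND2, another D-type cyclin, also fell (-1.08), and CDC25A, a phosphatase that activates CDKs, was the other fall. CDKN1C (chr11:2883218-2885775), encoding the CDK inhibitor p57, had 5.21, 4.83, 6.11 and 5.70 CPM at 2 h and was nearly absent in DMSO, at 0.0919, 0.326, 0 and 0 CPM. It rose by 4.99 ± 0.28 (adjusted p = 2.08e-15). E2F2 rose to 65.6 to 74.6 CPM at 2 h, against 27.4 to 31.5 CPM in DMSO (1.26 ± 0.07), and CDKN1B, encoding p27, was not called (0.20 ± 0.05).

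Cytokine genes fell or stayed. Of 28 measured cytokines, chemokines and growth factors 10 fell (35.7%) and 0 rose (median -0.28), 6 of them with 1 CPM added. TNF (chr6:31575565-31578336, plus strand), an inflammatory cytokine, had 6.23, 8.11, 8.86 and 7.55 CPM at 2 h, against 147, 136, 133 and 144 CPM in DMSO (-4.18 ± 0.10, adjusted p = 4.13e-25). LTB (chr6:31580558-31582425, minus strand), which lies 2221 bases from TNF and encodes a membrane lymphotoxin, fell beside it, with 4.54, 2.58, 2.86 and 3.39 CPM at 2 h and 22.7, 23.0, 20.8 and 17.7 CPM in DMSO (-2.64 ± 0.17, adjusted p = 2.58e-14). IL1RN, the antagonist of interleukin-1, fell as well: it had 3.51 to 4.90 CPM at 2 h and 16.4 to 18.6 CPM in DMSO (-2.02 ± 0.08). The other called members were CCL3L3 (-2.62), which has near-identical copies, CXCL10 (-2.56), IL16 (-2.13), HBEGF (-1.95), IL1B (-1.85) and CXCL8 (-1.74), chemokines and growth or inflammatory factors. IL12A, the p35 chain of interleukin-12, fell by 2.18 ± 0.21, to 0.958, 0.707, 1.24 and 1.50 CPM at 2 h, against 7.03, 3.85, 5.00 and 5.33 CPM in DMSO. F3, which encodes tissue factor, the starter of coagulation, had 9.17, 10.1, 11.3 and 9.89 CPM at 2 h, against 125, 113, 118 and 126 CPM in DMSO (-3.56 ± 0.08, adjusted p = 2.01e-25).

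Of the 23 NF-kB subunits and inhibitors 2 rose (8.7%, against 4.3% of all genes) and 1 fell (4.3%, against 2.98%), with a median of -0.16. TNFAIP3 (chr6:137866349-137883312, plus strand), the A20 protein that shuts off NF-kB, had 14.7, 14.6, 15.3 and 13.2 CPM at 2 h, against 121, 119, 121 and 120 CPM in DMSO (-3.05 ± 0.09, adjusted p = 4.70e-23). The long non-coding RNA WAKMAR2, whose gene overlaps it by 1885 bases, fell by a like amount (-3.09 ± 0.27), and the reads of the overlap cannot be assigned without the strand setting. TNFAIP2 had 299 to 339 CPM at 2 h and 71.3 to 80.0 CPM in DMSO (2.06 ± 0.05), and the IkB-like factor BCL3 rose by 1.10 ± 0.08.

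A regulator of G-protein signalling was among the largest falls. RGS16 (chr1:182598623-182604389, minus strand), a GTPase activator for Gi and Gq, had 4.20, 4.49, 4.32 and 5.06 CPM at 2 h, against 152, 156, 144 and 149 CPM in DMSO (-5.03 ± 0.07, adjusted p = 1.03e-30). RGS18 (-1.69 ± 0.17) and RGS1 (-1.25 ± 0.22, -0.83 and no call with 1 CPM added) fell and RGS12 rose (1.09 ± 0.06), 3 lower and 1 higher of 9. Among 36 G-protein-coupled receptors 6 fell (16.7%, against 2.98% of all genes) and 2 rose (5.6%, near the 4.3% of all genes). The adhesion receptor ADGRE5, also called CD97, had 542, 478, 475 and 475 CPM at 2 h, against 92.9, 102, 96.4 and 92.4 CPM in DMSO (2.36 ± 0.05, adjusted p = 9.02e-27). CX3CR1, the fractalkine receptor of monocytes, rose to 92.3 to 96.0 CPM at 2 h, against 22.8 to 25.4 CPM in DMSO (1.94 ± 0.06), and CCR2, the receptor for CCL2, fell to 10.1 to 12.4 CPM, against 23.9 to 26.9 CPM in DMSO (-1.13 ± 0.07). GPR3 (-2.85), GPR84 (-1.59), the adenosine receptor ADORA2A (-1.45), P2RY11 (-1.22) and the acid sensor GPR65 (-1.13) were the other falls. P2RY11 overlaps EIF3G, PPAN and the read-through gene PPAN-P2RY11, and reads in the shared stretches cannot be told apart.

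RHOB (chr2:20447074-20449440, plus strand), a small GTPase of the actin cytoskeleton, had 6.03, 4.66, 5.22 and 4.89 CPM at 2 h and 0.0460, 0.0651, 0.0562 and 0 CPM in DMSO. Only 3 reads supported it in the DMSO group, against 398 at 2 h, a 124-fold ratio of summed reads (95% interval 42.1 to 604, counting error only). The related RHOU (1.74 ± 0.06) and RHOC (1.38 ± 0.06) rose, and RHOA stayed just short of the threshold, with 1045 to 1128 CPM at 2 h and 543 to 576 CPM in DMSO (0.96 ± 0.03). RAC2 leaned lower without a call (-0.73 ± 0.05).

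Of 16 BCL2 family genes, which decide between survival and apoptosis, 3 rose and 1 fell (median 0.01). BMF had 83.7, 81.6, 78.0 and 82.5 CPM at 2 h, against 14.1, 16.0, 15.2 and 13.1 CPM in DMSO (2.48 ± 0.06, adjusted p = 7.40e-24). BBC3, encoding PUMA, had 94.8, 80.4, 81.6 and 77.4 CPM at 2 h, against 17.6, 18.1, 15.2 and 16.2 CPM in DMSO (2.31 ± 0.08, adjusted p = 1.35e-20). Both encode BH3-only proteins that promote cell death. Both were higher in every treated library than in any DMSO library, as were 25.4% of all genes. BIK, of the same kind, rose by 1.07 ± 0.15. BCL2A1, an anti-apoptotic member, fell by 2.55 ± 0.28, to 0.110 to 0.345 CPM at 2 h, against 1.80 to 2.15 CPM in DMSO. BCL2, the target of venetoclax, had 53.4 to 65.8 CPM at 2 h and 101 to 103 CPM in DMSO, apart but short of the threshold (-0.79 ± 0.05), and MCL1 was at -0.41 ± 0.04. BCL2L11, encoding BIM, had 21.4 to 24.0 CPM at 2 h and 15.9 to 25.1 CPM in DMSO, overlapping values, and PMAIP1 (-0.72 ± 0.08) and BCL2L1 (0.10 ± 0.07) were not called. In the p53 list 4 of 29 rose (13.8%, against 4.3% of all genes) and 2 fell (6.9%, against 2.98%), with a median of 0.10. PHLDA3, an inhibitor of AKT, had 87.8 to 113 CPM at 2 h and 25.8 to 30.9 CPM in DMSO (1.79 ± 0.09). The nuclease AEN (-1.40 ± 0.05) and the kinase PLK3 (-1.95) fell. BBC3, BTG2 and TP53I3 (1.21) were the other p53 genes that rose.

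Genes of FOXO and quiescence were among the rises, with 6 of 27 higher (22.2%), 1 lower and a median of 0.54. CCNG2 had 38.2 to 41.7 CPM at 2 h and 13.5 to 14.5 CPM in DMSO (1.47 ± 0.06), KLHL24 had 34.9 to 39.0 CPM at 2 h and 12.6 to 13.3 CPM in DMSO (1.47 ± 0.06), and CITED2 fell (-1.31 ± 0.04). YPEL2 (1.74) and YPEL5 (1.36) rose too. BTG2 (1.59 ± 0.06), TOB1 (1.39 ± 0.08) and PNRC1 (1.49 ± 0.05) promote removal of poly(A) tails or caps from messenger RNA. They made up the 3 rises among 30 RNA decay regulators (10.0%, against 4.3% of all genes). Of the 5 alpha-arrestins ARRDC3 rose (1.18 ± 0.09) while TXNIP stayed under the threshold, with 182 to 201 CPM at 2 h and 104 to 108 CPM in DMSO (0.85 ± 0.04). In the PI3K, AKT and mTOR list 0 of 32 rose and 2 fell (6.2%, against 2.98% of all genes). One was PIK3CG, the leukocyte catalytic subunit of PI3K gamma (-1.29 ± 0.05). The other was IRS1, with 3 reads in the 2 h libraries and 47 in DMSO, a 16.8-fold lower sum (95% interval 5.40 to 84.2), and with 1 CPM added it was not called (-0.69).

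Haematopoietic transcription factors were mixed, 3 of 39 higher (7.7%, against 4.3% of all genes) and 3 lower (7.7%, against 2.98%). RUNX3 had 61.6, 49.0, 50.3 and 49.3 CPM at 2 h, against 10.97, 11.5, 13.7 and 13.6 CPM in DMSO (2.07 ± 0.07). NFE2, a factor of erythroid and megakaryocytic cells, had 220 to 233 CPM at 2 h and 56.1 to 58.9 CPM in DMSO (1.98 ± 0.06). MYB, a keeper of the progenitor state, fell to 137 to 147 CPM, against 287 to 311 CPM in DMSO (-1.07 ± 0.04), and CEBPD (-1.88 ± 0.07) and TFEC (-1.17) fell as well. Interferon genes had 6 of 32 higher and 0 lower (median 0.20), including RIGI, a sensor of viral RNA, at 70.9 to 77.0 CPM at 2 h and 17.3 to 20.5 CPM in DMSO (1.94 ± 0.11), SAMD9L (1.99 ± 0.10), IRF9 (1.85 ± 0.06), ISG20 (1.38), IRF5 (1.19 ± 0.08) and IRF7 (1.09). In the circadian list 4 of 13 fell and 1 rose (median -0.25). NR1D1, encoding the repressor REV-ERB alpha, had 1.92, 1.63, 1.80 and 0.992 CPM at 2 h and 11.8 to 12.4 CPM in DMSO (-2.88 ± 0.16), and PER2 (-1.54 ± 0.07), NR1D2 (-1.54 ± 0.13) and TEF (-1.31 ± 0.10) also fell, and CIART rose (1.22), a call that was lost with 1 CPM added as the offset, where 0 genes of the list rose. NR1D1 overlaps THRA and NR1D2 overlaps NKIRAS1. HES1, the repressor downstream of Notch, fell (-1.39 ± 0.23) and its relative HES4 rose (1.31 ± 0.24), the only 2 calls among 12 such repressors. Of the 53 histone and DNA modifying enzymes 1 was called, HDAC11, under 2 CPM in both groups (1.53 ± 0.19, and 0.73 without a call with 1 CPM added).

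Transporters of amino acids, glucose and lactate had 4 of 28 lower and 2 higher (median -0.17). SLC7A5, the large neutral amino acid transporter LAT1, had 393, 337, 332 and 334 CPM at 2 h, against 904, 1041, 967 and 922 CPM in DMSO (-1.46 ± 0.05). SLC43A3, a purine transporter, fell by 1.30 ± 0.05, and SLC2A3, encoding GLUT3, by 1.03 ± 0.04, at the edge of the threshold (-0.998 and not called under median-of-ratios scaling). SLC16A6, of the monocarboxylate transporter family, fell by 1.08. SLC43A2, another amino acid transporter, rose by 1.08 ± 0.07, and the hexose transporter SLC2A6 rose by 2.75.

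**Figure D4:**
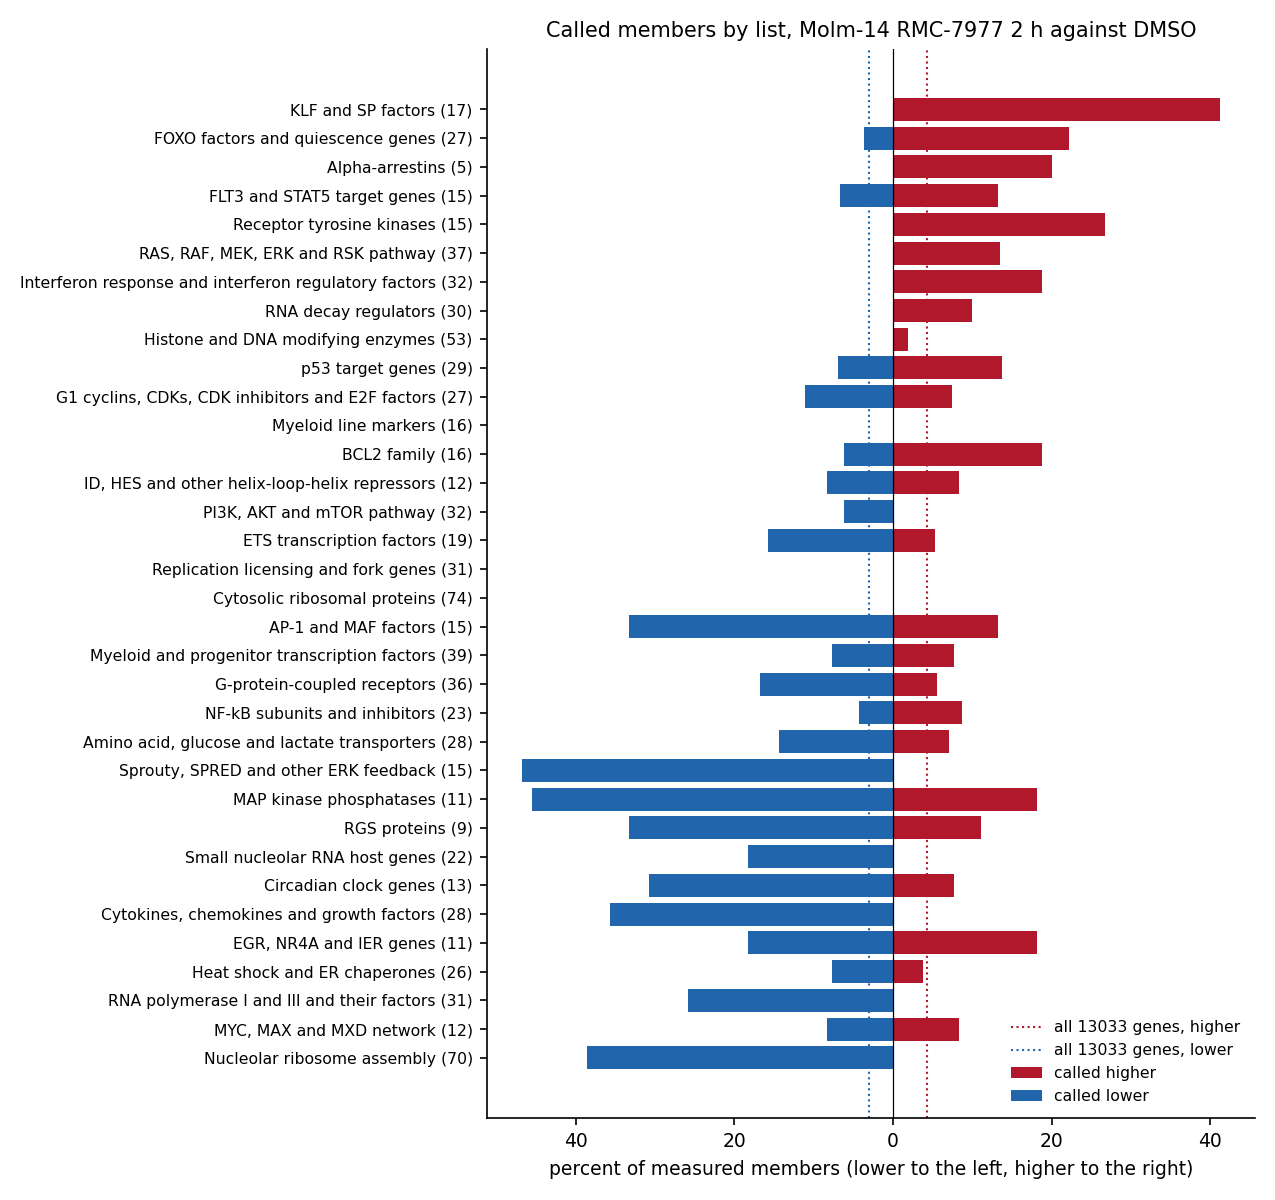
Share of measured members of each list shown (number in brackets, y axis) called higher (red, to the right) or lower (blue, to the left) after 2 h in Molm-14, in percent, ordered by median log2 fold change with the highest at the top; dotted lines give the share of all 13033 genes, 4.3% higher and 2.98% lower. The KLF and SP bar reaches 41.2% higher, and the nucleolar bar reaches 38.6% lower.

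MIR222HG (chrX:45745214-45770267, minus strand), the host transcript of a pair of microRNAs, had 0.729, 0.657, 0.432 and 0.632 CPM at 2 h, against 6.80, 7.16, 7.61 and 7.996 CPM in DMSO (-3.40 ± 0.18, adjusted p = 4.29e-16). Its products miR-221-3p and miR-222-3p are known to target the CDK inhibitor genes CDKN1B and CDKN1C, and their sequences are shown because the seed they share (bases 2 to 8, in capitals) sets which messages they pair with.
miR-221-3p: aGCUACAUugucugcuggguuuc
miR-222-3p: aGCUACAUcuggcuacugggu
Both mature sequences (RefSeq, GRCh38.p14, chrX:45746180-45746202 and chrX:45747036-45747056, minus strand) lie inside the host gene. Poly(A) libraries do not measure mature microRNAs, so only the host transcript is reported here.

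The remaining large rises came from genes that Molm-14 hardly expressed in DMSO. ENHO, encoding the secreted peptide adropin, had 6.53, 4.11, 5.51 and 5.54 CPM at 2 h and 0.0460, 0, 0.0562 and 0 CPM in DMSO. It counted 416 reads at 2 h and 2 in DMSO, a 194-fold ratio (95% interval 53.5 to 1611). CRIP2, a LIM-domain protein, had 16.8, 14.97, 15.8 and 15.5 CPM at 2 h, against 0.414, 0.586, 0.337 and 0.372 CPM in DMSO (4.92 ± 0.19). KIAA1522 rose by 4.78 ± 0.18, and PTGDS, a prostaglandin D synthase, rose to 10.8, 8.16, 9.46 and 9.32 CPM at 2 h, against 0.873, 0.195, 0.281 and 0.372 CPM in DMSO (4.30 ± 0.38). MAP1A, a microtubule-associated protein (3.96 ± 0.22), and CAPN12, a calpain protease whose gene overlaps ACTN4 (3.72 ± 0.22), followed. TSC22D3, encoding the glucocorticoid-induced leucine zipper GILZ, started higher, with 193, 185, 186 and 198 CPM at 2 h and 12.1, 13.8, 12.3 and 13.6 CPM in DMSO (3.87 ± 0.06, adjusted p = 3.33e-30). FJX1, whose Drosophila relative acts in planar cell polarity, had 0.638, 1.10, 0.594 and 0.578 CPM at 2 h, against 8.12, 8.27, 7.002 and 7.44 CPM in DMSO (-3.27 ± 0.37), among the 12 largest falls.

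**Figure D5:**
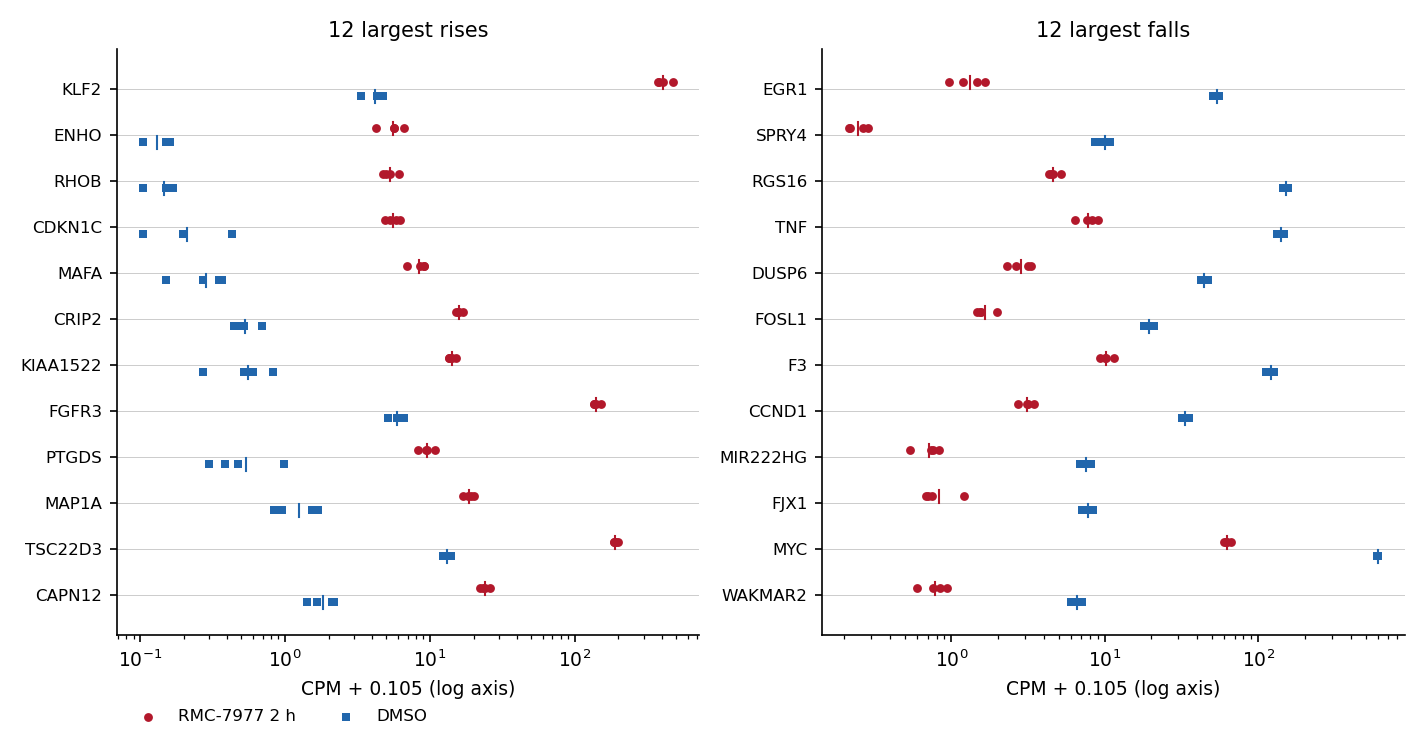
CPM plus the offset of 0.105 (x axis, log axis) in each library for the 12 largest rises and the 12 largest falls, with red circles for RMC-7977 2 h, blue squares for DMSO and vertical bars for the group means (n = 4 each). The groups do not overlap in any of these genes, a condition of their choice, and KLF2 lies at 374 to 472 CPM at 2 h, against 3.26 to 4.67 CPM in DMSO.

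The same drug, dose and time in OCI-AML3, which shares no library with the Molm-14 comparison, called 858 genes (6.58%: 421 higher, 3.23%, and 437 lower, 3.35%). Genes called in the same direction in both lines numbered 334, 35.2% of the Molm-14 calls and 38.9% of the OCI-AML3 calls, and 7 were called in opposite directions. Of these, 207 genes fell in both, 53.2% of those in Molm-14 and 47.4% of those in OCI-AML3, and 127 rose in both, 22.6% and 30.2%. A test of the difference in response (Molm-14 minus OCI-AML3) called 735 genes (5.64%), 459 with the higher log2 fold change in Molm-14 (3.52%) and 276 with the lower (2.12%), at an adjusted p below 0.05 and a difference of at least 1.

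Several Molm-14 rises were smaller or not called in OCI-AML3. KLF2 rose in both lines, by 6.61 in Molm-14 and 1.54 in OCI-AML3, a difference of 5.06 ± 0.13 (adjusted p = 1.15e-19). RHOB (difference 4.24), MAFA (4.61) and PTGDS (4.27) were called in Molm-14 and not in OCI-AML3, where they stood at 0.95, 0.34 and 0.03. RHOB averaged 26.6 CPM in DMSO and 51.6 CPM at 2 h in OCI-AML3, against 0.0418 and 5.20 CPM in Molm-14. KLF2 averaged 58.3 and 170 CPM in OCI-AML3, against 4.09 and 407 CPM in Molm-14. MAFA and PTGDS averaged under 1 CPM in DMSO in both lines. Whether starting levels account for these differences was not tested. CAMKK1, a kinase that activates CaM kinases, was called in opposite directions, at 43.2 to 51.6 CPM at 2 h and 4.78 to 6.75 CPM in DMSO in Molm-14 (2.97 ± 0.12), against a log2 fold change of -2.07 in OCI-AML3, a difference of 5.04. EBF3 was the reverse case, -1.06 ± 0.15 in Molm-14 and 1.63 in OCI-AML3 (difference -2.69). KLF3 (difference 2.51), KLF6 (1.97), KLF13 (1.43) and KLF11 (1.06, and 0.99 with no call without OCI-AML3 DMSO replicate 2) were higher in Molm-14 by this test, and JUN (2.84), NR4A1 (2.76), SPIB (2.19), DUSP16 (2.14), DUSP8 (1.83), ADGRE5 (2.37) and RUNX3 (2.36) did too.

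The falls were deeper in Molm-14, by the test of the difference, for RGS16 (-5.03 in Molm-14 and -1.75 in OCI-AML3, difference -3.28), F3 (difference -2.34) and EGR1 (-5.37 in Molm-14 and -3.62 in OCI-AML3, difference -1.75). FJX1 (difference -3.02) and IL12A (-2.43) were also called, but in OCI-AML3 FJX1 averaged 0.131 CPM at 2 h and 0.175 CPM in DMSO, and IL12A 0.873 CPM at 2 h and 0.729 CPM in DMSO, so a fall as deep as in Molm-14 could not have been measured there. The falls of CCND1 (difference 1.43) and DUSP2 (2.09) were deeper in OCI-AML3. For DUSP6 (-3.96 in Molm-14 and -5.31 in OCI-AML3) the difference of 1.35 was called, but with 1 CPM added it was -0.18 and not called, so which line had the deeper fall depends on the offset. The differences of 0.36 for SPRY4 (1.35 and called with 1 CPM added), -0.89 for MYC and -0.39 for TNF were not called. Of the 70 nucleolar genes 0 differed between the lines, with a median of -0.86 in Molm-14 and -0.80 in OCI-AML3.

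Between 2 h and 24 h of treatment in Molm-14, 1385 genes were called (10.6%), 945 higher at 24 h (7.25%) and 440 lower (3.38%). This comparison shares the 2 h libraries with the comparison against DMSO, so for genes called at 2 h the mean levels are given side by side, in the order DMSO, 2 h and 24 h, with no calls between 2 h and 24 h. DUSP6 averaged 43.9 CPM in DMSO, 2.75 CPM at 2 h and 42.4 CPM at 24 h, and F3 120.5 CPM in DMSO, 10.1 CPM at 2 h and 113 CPM at 24 h. With WAKMAR2 (6.46, 0.677 and 6.01 CPM), ENC1 (12.3, 2.26 and 18.1 CPM) and CD300A (9.81, 4.24 and 53.2 CPM), an inhibitory receptor of myeloid cells, they had the 5 highest log2 differences of 24 h over 2 h among genes called at 2 h that averaged 5 CPM or more at 2 h or in DMSO and whose libraries there did not overlap. IL16, under that level, had a higher one, at 4.61 CPM in DMSO, 0.982 CPM at 2 h and 24.7 CPM at 24 h. The 5 lowest differences under the same rule were those of RHOB (0.0418 CPM in DMSO, 5.20 CPM at 2 h and 0.140 CPM at 24 h), CRIP2 (0.427, 15.8 and 1.11 CPM), FGR (2.17, 15.8 and 1.84 CPM), a SRC-family kinase, ANGPT1 (7.20, 1.77 and 0.0738 CPM), the TIE2 ligand, and SPIB (31.4, 314 and 39.99 CPM). The 24 h means of FGR and SPIB lay near those of DMSO, whereas those of EGR1 (53.6, 1.22 and 0.962 CPM), TNF (140, 7.69 and 7.52 CPM) and TSC22D3 (12.9, 190 and 179 CPM) lay near those of 2 h. MYC at 24 h stood between its other levels, with 601 CPM in DMSO, 62.6 CPM at 2 h and 319 CPM at 24 h. The same was true of RGS16 (151, 4.52 and 32.5 CPM), SPRY2 (36.0, 6.07 and 22.0 CPM) and CCND1 (33.1, 2.996 and 9.51 CPM), and of KLF2 (4.09, 407 and 108 CPM) and FGFR3 (5.82, 140 and 28.6 CPM). JUN had 4.85 CPM in DMSO, 26.9 CPM at 2 h and 3.38 CPM at 24 h. MAFA had 0.181 CPM in DMSO, 8.31 CPM at 2 h and 31.7 CPM at 24 h.

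Sequence composition of the called genes is given as a description, with no test. The longest transcript of the genes that rose had a median GC content of 57.4%, against 50.6% for those that fell and 48.5% for all genes (99.1%, 99.5% and 99.6% of each set had a value). Median transcript lengths were 3580 bases for genes that rose, 3339 for genes that fell and 3560 for all. Median gene spans were 20.7 kb for genes that rose, 17.5 kb for genes that fell and 28.4 kb for all genes.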

How the data were processed

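Poly(A) RNA from Molm-14 and OCI-AML3 cells was sequenced. The authors deposited 1 table of log2 CPM values for 13033 genes, of which 23 libraries were used here; the third 24 h replicate of OCI-AML3 is not analysed here. The submitters' processing notes list STAR 2.7.8a, RSEM 1.3.3, edgeR 3.24.3, limma 3.38.3, Trimmomatic 0.36 and MultiQC 1.28, with the build hg38 (GRCh38), without saying in which order or with which settings. Parameters, strandedness and the expression filter are not given in the sources used for this text. CPM were recovered by subtracting the offset (lowest log2 value -3.255), and 75.4% to 82.8% of low values came out as whole reads within a tolerance of 0.05, which gave the effective library sizes.

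Groups were taken from the labels. limma 3.58.1 (R 4.3.3), with the trend and robust options, fitted 6 group means over the 23 libraries, with Benjamini-Hochberg adjustment over all genes, and every adjusted p in the text comes from this model. The fit was run on simulated data with independent normal errors, so that run cannot show effects of shared cultures, GC content or low read counts. A value after ± is the SE of a log2 fold change unless it is marked SD. Intervals of read ratios are 95% exact intervals and cover counting error only, since reads without molecular identifiers are not independent molecules. Coordinates, promoters (250 bases) and microRNAs are RefSeq's on GRCh38.p14.

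Genes named were the 12 largest rises and falls without overlap between groups whose higher group averaged 5 CPM or more, up to 4 called members of each of 38 gene lists, the 5 largest in each direction for the other comparisons, all members of some small lists, and a set of pathway genes. Called list members outside this rule, such as CCND2, RPS6KA2, SLC2A6 and GPR3, were named after their values were seen, to complete a list's count. A few genes and 1 list are not reported here. The comparison, the lists and the tests were chosen with earlier results of these data known. Of 176 named genes with coordinates 20 overlap another gene of the table, among them ETV4, MAFF, EPHB4, RHOU, MAK16, HRAS, SPRY3, IL16 and ENC1 beside those given in the text.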

Additional observations from a re-analysis of the deposited data

Results flagged for a closer look

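Within groups of 4 libraries, 18 of 354 sets of named-gene values had 1 library farther from the rest than Dixon's 95% critical value allows, and chance gives about 1 in 20. Of these, 5 were replicate 1 of the 2 h group standing highest, the library with the widest GC split. They were ADGRE5, at 542.0909 CPM against 474.4794 to 477.6388 CPM in the other 2 h libraries, SLC7A5, at 393.2867 CPM against 332.3388 to 336.5924 CPM, IER5, at 149.4659 CPM against 124.9088 to 126.6652 CPM, RUNX3, at 61.581 CPM against 49.0127 to 50.2456 CPM, and DUSP8, at 28.3873 CPM against 25.0777 to 25.4725 CPM. The same library was lowest for IER3, at 0.3647 CPM against 1.0923 to 1.2429 CPM.

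Replicate 2 of the 2 h group was highest for FJX1 (1.0956 CPM), KLHL24 (38.99 CPM) and IRS1 (0.1643 CPM, the others at 0) and lowest for HES4 (10.1996 CPM) and RPS26 (171.1248 CPM). Replicate 3 was highest for CCNG2 (41.7313 CPM) and lowest for POLR1C (26.0395 CPM), and replicate 4 was highest for FEN1 (114.1675 CPM). Among the DMSO libraries replicate 2 was highest for MAFF (3.4501 CPM, against 2.2975 to 2.3629 CPM in the others) and LTK (0.2604 CPM) and lowest for ERRFI1 (11.5219 CPM), and replicate 1 was the DMSO library with COL1A2 reads (0.0919 CPM). Whether GC content has a part in these values was not tested.

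The 2 h responses of the lines differed by the test of the difference for the following genes, which are those whose difference the text gives and not all that were called. Molm-14 minus OCI-AML3 was 5.064 for KLF2, 5.039 for CAMKK1, 4.613 for MAFA, 4.27 for PTGDS and 4.241 for RHOB. It was 2.838 for JUN, 2.761 for NR4A1, 2.507 for KLF3, 2.369 for ADGRE5, 2.36 for RUNX3, 2.19 for SPIB, 2.141 for DUSP16, 2.091 for DUSP2, 1.973 for KLF6, 1.829 for DUSP8, 1.426 for CCND1, 1.425 for KLF13, 1.346 for DUSP6 and 1.055 for KLF11. It was -3.28 for RGS16, -3.024 for FJX1, -2.691 for EBF3, -2.428 for IL12A, -2.337 for F3 and -1.751 for EGR1. CAMKK1 and EBF3 were called in opposite directions in the lines.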

How the results depend on the processing

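The 2 h comparison called 940 to 988 genes without any 1 library (558 to 591 higher, 378 to 400 lower), and 844 to 1020 under another filter, scaling, spread model or test, the last being voom on recovered reads. Adding 1 CPM before logs gave 667 calls, 362 higher and 305 lower, since low genes are shrunk. It gave 470 for the difference between the lines, 336 higher and 134 lower, so that 71.5% of the calls were higher, against 62.4%. Without any 1 library that difference called 713 to 764 genes (436 to 478 higher, 265 to 287 lower), and 24 h against 2 h called 1378 to 1417 (940 to 965 higher, 438 to 452 lower). With the replicate number as a block 951 genes were called at 2 h (562 higher, 389 lower), 950 of them shared, 734 for the difference (458 and 276) and 1385 for 24 h against 2 h. Deviations of same-numbered libraries correlated at -0.157 to 0.118, and those of differently numbered libraries at -0.287 to 0.354. With 4 libraries a group this cannot decide whether the numbers pair the samples. Of 137 named genes called at 2 h, 126 kept the call under every alternative run, and 0 changed direction. These 137 leave out called list members named after their values were seen, such as CCND2 and SLC2A6, which were not rerun gene by gene. Among the 137, adding 1 CPM ended 9 calls and leaving out a library 3, all given with the genes above. The cause was not tested. The uncalled marker NKG7 was at -0.02 and changed sign with library totals (0.007), with median-of-ratios scaling (0.012) and without single libraries (-0.067 to 0.009). COL1A2 (0.71, 8 reads at 2 h and 2 in DMSO) was called with voom only (1.48). With 1 CPM added the difference between the lines became -0.177 for DUSP6, against 1.346, and was called for SPRY4 (1.347), and without OCI-AML3 DMSO replicate 2 that for KLF11 was 0.986 and not called. Depth limits genes under about 1 CPM, where a few reads decide a value.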
